A study of Mus musculus with 5 samples.

Results

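*Itgae*, *Tlr11* and *Cd24a* are 3 genes used in the mouse to mark conventional type 1 dendritic cells (cDC1s), the dendritic cells that depend on IRF8. They were taken by name from a deposited table of 1355 genes, in which all 3 were found. The table compares bone marrow-derived dendritic cells (BMDCs) of *Irf8*-OE and control mice. Every gene in it had already been selected by the authors for a difference between these same samples. A call on any of the 3 genes is therefore a description of the table and not an independent test.

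The *Irf8*-OE mice carried the *Irf8* CAG-LSL transgene at the H11 site together with *Itgax* Cre, so that *Itgax*, the CD11c gene, drives recombination. For the controls, the study's text gives the *Irf8* CAG-LSL genotype, whereas the sample labels give wild type. Both groups were of C57BL/6 background and labelled as male mice 8 weeks of age. Marrow cells of both groups grew with GM-CSF at 5 ng/ml and Flt3L at 200 ng/ml, were replated on day 9 and were collected on days 15 to 16, and the labels give TNF-α stimulation, at 20 ng/ml, for all samples. There were 3 *Irf8*-OE samples and 2 control samples. The labels do not say whether the samples of a group came from separate mice, so the spread between them may be technical.

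IRF8 works with BATF3 to establish and maintain the cDC1 lineage, whose cells take up dead-cell material and cross-present it to CD8+ T cells. *Itgae* encodes CD103, the αE integrin chain, which pairs with the β7 chain and binds E-cadherin of epithelial cells, and is carried by cDC1s of peripheral tissues and by intraepithelial T cells. *Tlr11* encodes an endosomal Toll-like receptor that senses the profilin of protozoan parasites, signals through MyD88 and leads to interleukin 12 production. *Cd24a* encodes heat-stable antigen, a small glycosylated protein held to the membrane by a lipid anchor, which is present on cDC1s and also on B cell precursors, granulocytes and red cell precursors.

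Values are normalized counts, the reads of a gene divided by 1 size factor per sample. The reads behind them could be recovered. They summed to 646123 to 1062127 per sample over the genes of the table, and the depth of the whole libraries is unknown. In the overexpressed gene itself, *Irf8*, the *Irf8*-OE samples had 7141, 6519 and 6021 normalized counts and the controls 2835 and 2747. Counts per gene do not separate reads of the transgene from those of the endogenous gene. Sex-linked genes went against the male label in the *Irf8*-OE samples and with it in the controls. *Xist*, transcribed from the inactive X chromosome, had 1 read and 0 reads in the controls, against 11238 to 13990 reads in *Irf8*-OE. The Y-linked *Uty*, *Kdm5d*, *Eif2s3y* and *Ddx3y* each had 431 to 1427 reads in the controls, against 0 reads in *Irf8*-OE. Sex and genotype therefore divide the 5 samples in the same way, and their parts in any value below cannot be told apart. General dendritic cell genes such as *Itgax*, *Flt3* and the MHC class II genes could not be used to check the cell type, since 0 of 9 genes of that list are in the table and the others are not analysed here.

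*Tlr11* lies on chromosome 14 of GRCm38 (50357914 to 50363663, plus strand). Among the 3 genes it is the 1 with a promoter window in the RefSeq table used here. The window is shown because it holds a match to a motif bound by IRF proteins. It covers chr14:50357664-50357963 (GRCm38.p6, plus strand), from 250 bases before to 50 bases after the start of the gene, and capitals mark the match.

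*Tlr11* promoter: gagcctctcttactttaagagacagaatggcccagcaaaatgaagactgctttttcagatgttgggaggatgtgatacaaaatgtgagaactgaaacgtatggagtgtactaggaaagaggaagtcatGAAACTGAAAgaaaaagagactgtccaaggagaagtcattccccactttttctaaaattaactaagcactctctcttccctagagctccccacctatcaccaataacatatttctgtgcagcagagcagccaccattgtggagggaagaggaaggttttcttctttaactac

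The match, GAAACTGAAA, is to the interferon-stimulated response element, searched as GAAA, any 2 bases and GAAA again, and runs from 122 to 113 bases upstream of the start on the plus strand. On both strands, 3.44% of all 32851 RefSeq windows of this length hold it, and per gene 1079 of 27025 (3.99%) do. Of the genes called higher in *Irf8*-OE that have a window, 44 of 501 (8.78%) hold it, and of those called lower 17 of 380 (4.47%). These shares are descriptions and were not tested. The ETS-IRF motif, GGAA, any 2 bases and GAAA, shares most of its letters with this element and is in 2.72% of windows, but has no match in the *Tlr11* window. Of the same genes, 13 of 501 called higher (2.59%) and 14 of 380 called lower (3.68%) hold it. Neither has the AP-1-IRF motif in its form with a spacer (TTTC, any 4 bases and TGANTCA, in 0.119% of windows) or without one (GAAA followed directly by TGANTCA, in 0.125%). A missing match says only that these letters are not in this window.

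*Itgae* was higher in every *Irf8*-OE sample than in either control. It lies on chromosome 11 (73090583 to 73147446, plus strand) and has up to 31 exons. It had 50.6 and 52.8 normalized counts in the 2 controls, against 164, 144 and 178 in the 3 *Irf8*-OE samples. The controls lay within a few counts of each other, and the groups did not overlap. The mean was 51.7 ± 1.56 (SD, n = 2) in the controls and 162 ± 17.1 (SD, n = 3) in *Irf8*-OE. In limma the log2 fold change was 1.62, with a standard error of 0.15, a 95% interval of 1.26 to 1.99 and an adjusted p of 4.85e-05. The coefficient of variation between *Irf8*-OE samples was 10.6%, where counting error alone would give about 7.73%. Between the 2 controls it was 3.02%, below the 14.1% of counting error, so their closeness is no measure of precision.

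*Haspin*, a kinase gene on the opposite strand, lies inside the *Itgae* locus (73135485 to 73138294). Of its 2810 exon bases, 0 are shared with an *Itgae* exon.

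*Tlr11* was also higher in every *Irf8*-OE sample, with far fewer reads. The 2 controls held 5.62 and 5.76 normalized counts, and the *Irf8*-OE samples 26.8, 21.5 and 17.1. These values rest on 5 and 6 reads in the controls, with exact Poisson 95% intervals of 1.62 to 11.7 and 2.20 to 13.1, and on 28, 23 and 17 reads in *Irf8*-OE. For the third *Irf8*-OE sample that interval, 9.90 to 27.2 reads, overlaps those of both controls, and such intervals cover counting error only. The mean rose from 5.69 ± 0.0979 (SD, n = 2) to 21.8 ± 4.89 (SD, n = 3). In limma this was 1.75 on the log2 scale, with a standard error of 0.30, a 95% interval of 1.03 to 2.47 and an adjusted p of 0.00102. Between the *Irf8*-OE samples the coefficient of variation of 22.4% was close to the 21.0% that counting error gives. Between the 2 controls it was 1.72%, far below the 42.6% of counting error, so the control SD understates the uncertainty. Quantile normalization ended the call, at 0.51 on the log2 scale with an adjusted p of 0.142 in limma.

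*Cd24a* went the other way. It lies on chromosome 10 (43578284 to 43584265, plus strand), with 363 coding bases among 2580 exon bases. The controls had 9688 and 10426 normalized counts and the *Irf8*-OE samples 3564, 3958 and 4042, with no overlap between the groups. The mean was 10057 ± 522 (SD, n = 2) in the controls and 3855 ± 255 (SD, n = 3) in *Irf8*-OE, which is 2.61-fold lower. In limma the log2 fold change was -1.38, with a standard error of 0.07, a 95% interval of -1.56 to -1.21 and an adjusted p of 3.61e-06. With 3718 to 10865 reads in each sample, counting error would give a coefficient of variation of 1.58% in *Irf8*-OE, and the observed one was 6.63%. The fall kept its direction but was below the fold threshold after quantile normalization (-0.80) and after scaling every sample to the same sum over the listed genes (-0.73).

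**Figure D1:**
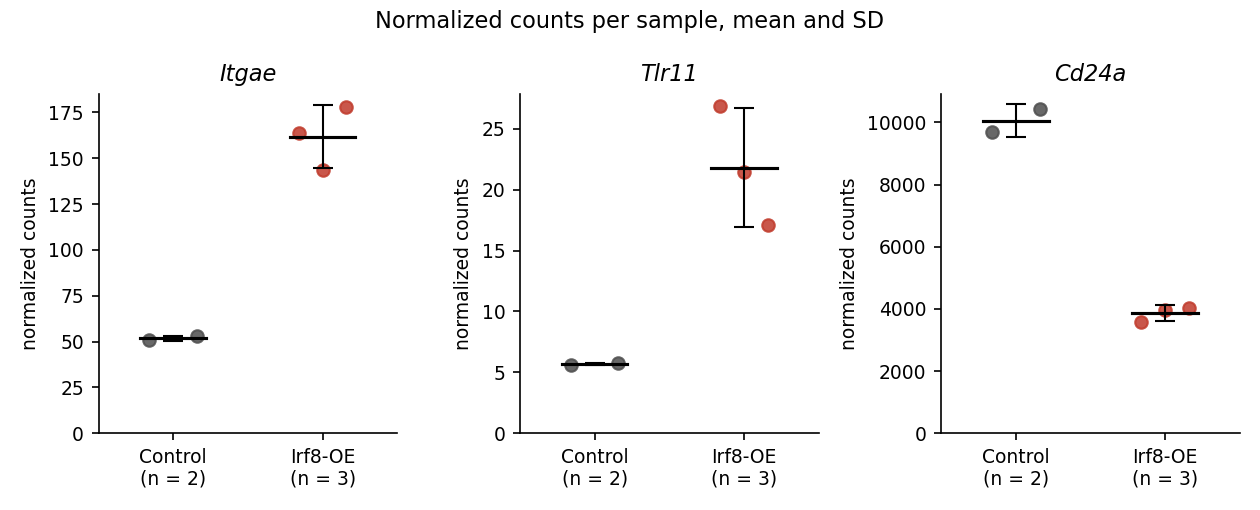
Normalized counts of *Itgae*, *Tlr11* and *Cd24a* (vertical axes, each from 0) in the 2 control and 3 *Irf8*-OE samples. Points are samples, thick lines are means and bars are SDs. *Itgae* and *Tlr11* are higher in all 3 *Irf8*-OE samples than in both controls, and *Cd24a* is lower.

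A gene was called where its adjusted p was under 0.05 and its log2 fold change above 1 or below -1. All 3 genes were called, as were 99.1% of the genes of the table. *Itgae* and *Tlr11* were called higher, as were 58.1% of the listed genes, and *Cd24a* was called lower, as were 41.0%. With the samples scaled to equal sums, the table split into 797 higher and 276 lower genes, against 787 and 556 with the authors' scaling, and the median log2 fold change of all listed genes moved up by 0.65. The groups did not overlap in 100% of the listed genes, so the separation of the 3 genes is shared with the whole table. By size of change, *Itgae* stood at position 461 and *Tlr11* at 419 of the 787 higher genes, and *Cd24a* at 365 of the 556 lower ones. Each thus changed by less than most listed genes of its own direction.

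**Figure D2:**
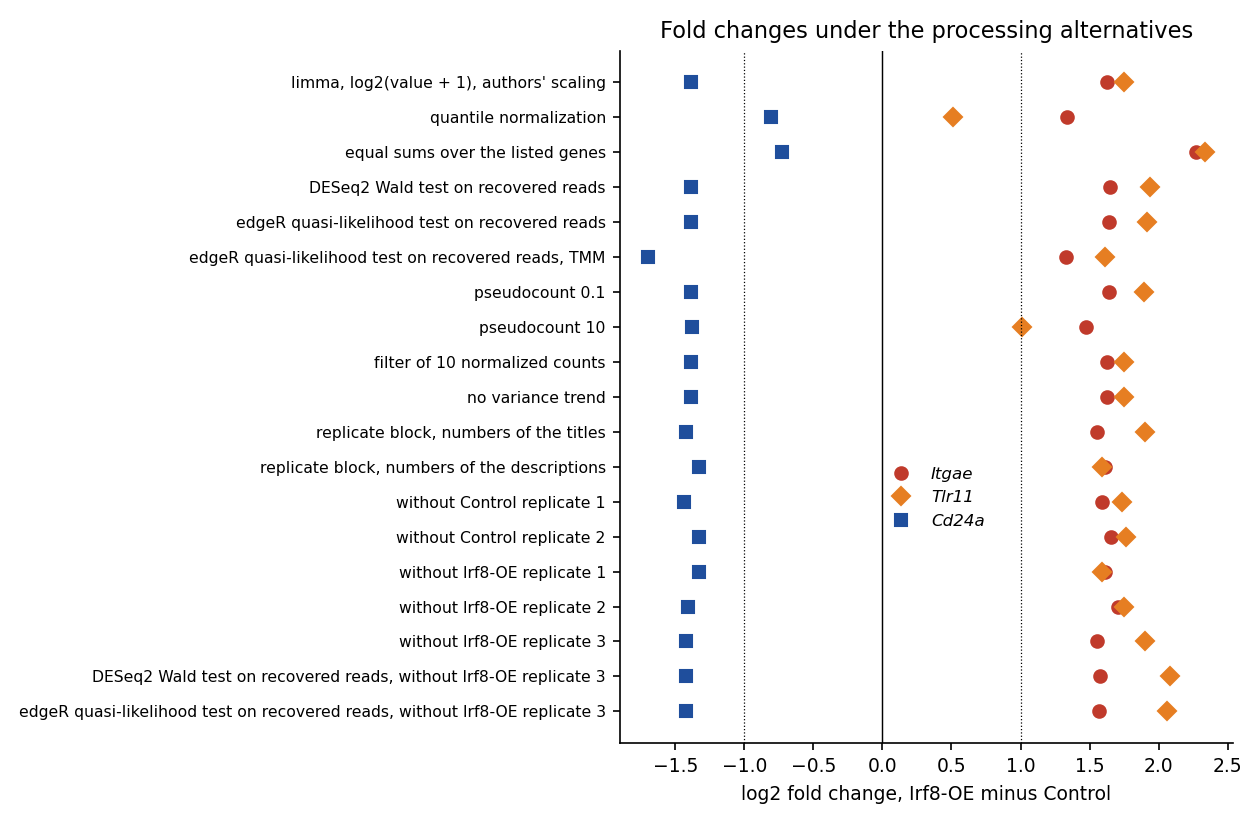
Log2 fold changes of *Itgae*, *Tlr11* and *Cd24a*, *Irf8*-OE minus control (horizontal axis), under each way of processing (rows, the top one as reported). Dotted lines mark 1 and -1. *Itgae* stays above 1 in every row, *Tlr11* falls to 0.51 in the quantile row, and *Cd24a* lies above -1 in the quantile and equal-sum rows.

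**Figure D3:**
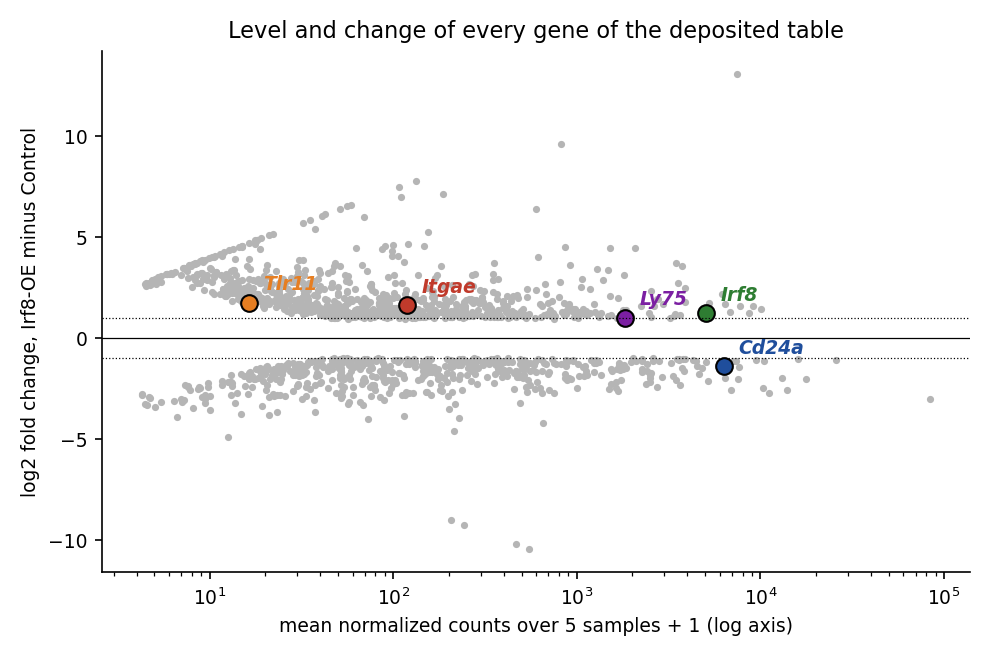
Each point is a gene of the deposited table, by its mean normalized count plus 1 over the 5 samples (horizontal log axis) and its log2 fold change, *Irf8*-OE minus control (vertical axis). Dotted lines mark log2 fold changes of 1 and -1. Few genes lie between them, the table being a list of genes past these thresholds. *Cd24a* stands near the right end below 0, *Itgae* in the middle and *Tlr11* toward the left end, both above 0.

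Levels of different genes were compared as normalized counts per kilobase of exon. For *Irf8* the length used is that of the endogenous gene, which the transcript of the transgene need not share. In the controls, *Cd24a* had 3898 ± 202 (SD, n = 2), *Irf8* 396 ± 8.83, *Ly75* 164 ± 4.91, *Itgae* 11.3 ± 0.340 and *Tlr11* 1.74 ± 0.0299 normalized counts per kilobase. In *Irf8*-OE the order was the same, with 1494 ± 99.0 (SD, n = 3) for *Cd24a*, 929.9 ± 79.5 for *Irf8*, 331 ± 13.8 for *Ly75*, 35.3 ± 3.73 for *Itgae* and 6.66 ± 1.49 for *Tlr11*. Neighbours in this order were separated by more than their SDs in both groups. By level per kilobase *Cd24a* was at position 18 of the 1355 listed genes, *Itgae* at 662 and *Tlr11* at 1190.

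*Itgae* and *Tlr11* were also set against *Cd24a* within each sample. Such a ratio gives only the change of 1 gene relative to another, not the direction of either. Per kilobase, *Itgae* amounted to 0.294% and 0.285% of *Cd24a* in the 2 controls, against 2.59%, 2.05% and 2.48% in *Irf8*-OE. On the log2 scale this ratio was higher by 3.01 in *Irf8*-OE, with a pooled SD of 0.15 and a pseudocount of 1 added to both genes. It was 2.14 after quantile normalization. *Tlr11* amounted to 0.0457% and 0.0435% of *Cd24a* in the 2 controls, against 0.593%, 0.428% and 0.333% in *Irf8*-OE, a ratio higher by 3.13 on the log2 scale (pooled SD 0.33). With a pseudocount of 10 this difference was 2.39, and after quantile normalization 1.31. In a two-sided exact permutation test of 3 samples against 2, both ratios had p = 0.2. That is the smallest p this test can give, since it doubles the one-sided share over 10 splits. Genes listed for opposite changes reach it by their selection. The log2 ratio of *Itgae* to *Tlr11* was 2.96 and 2.99 in the controls and 2.57, 2.69 and 3.31 in *Irf8*-OE. Here the *Irf8*-OE samples lay on both sides of the controls, and the difference of -0.12 was within the pooled SD of 0.32 (two-sided exact permutation test, p = 0.8). Its sign turned with a pseudocount of 10 (0.47) and after quantile normalization (0.83), both beyond that SD. With 3 samples against 2 the test does not show that the 2 genes changed alike.

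Of a list of 26 cDC1 genes, 5 are in the table, 4 of them higher and 1 lower, where 58.1% of all listed genes were higher and 41.0% lower. The median log2 fold change of the 5 was 1.23, beside 1.14 over all listed genes. That median is the value of *Irf8*, the overexpressed gene itself. The 5 also include the 3 genes described above, so these figures add no separate support. The other genes of the 5 are *Irf8*, at a log2 fold change of 1.23 (standard error 0.08), and *Ly75*. *Ly75* encodes DEC-205, an endocytic receptor of cross-presenting dendritic cells, and had 1155 and 1107 normalized counts in the controls and 2203, 2257 and 2388 in *Irf8*-OE. Its log2 fold change of 1.01 fell below 1 without the second control and without the third *Irf8*-OE sample, at 0.98 in both cases. With TMM scaling, computed from the listed genes only, neither gene was called, at 0.92 for *Irf8* and 0.70 for *Ly75*. The other 21 genes of the list, among them *Xcr1*, *Clec9a*, *Batf3*, *Cadm1* and *Tlr3*, are not in the table and were not analysed here.

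Around *Itgae*, the list of integrin chains and the ligand of CD103 held 5 genes of the table out of 28. Of these 3 were higher, *Itgae* itself among them, and 2 lower, beside 58.1% and 41.0% of all listed genes. *Cdh1*, which encodes that ligand, E-cadherin, had 625 and 594 normalized counts in the controls and 2230, 2380 and 2593 in *Irf8*-OE, a rise of 1.97 on the log2 scale (standard error 0.08, adjusted p of 1.33e-06 in limma). Ligand and αE chain were thus both higher in all 3 *Irf8*-OE samples. *Itga11*, a collagen-binding chain, had a log2 fold change of 2.42 (standard error 0.22), from 13.5 and 19.2 to 95.9, 87.8 and 88.4 normalized counts. *Itga2*, another collagen-binding chain, and *Itga2b*, the chain of megakaryocytes and platelets, were lower, with log2 fold changes of -1.70 (standard error 0.31) and -1.05 (standard error 0.07). *Itga2b* fell short of the threshold after quantile normalization (-0.62) and after scaling to equal sums (-0.39).

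TGF-β and GM-CSF are both known to induce CD103. Of 18 genes of these pathways 3 are in the table. *Smad3*, a transducer of TGF-β signals, had 41.6 and 55.7 normalized counts in the controls and 149, 143 and 120.5 in *Irf8*-OE, a log2 fold change of 1.49 (standard error 0.19). *Tgfbr1*, a receptor chain for TGF-β, had a log2 fold change of -1.05 (standard error 0.10), and of -0.95 without the first *Irf8*-OE sample, below the threshold. *Csf2rb2*, a β chain of the interleukin 3 receptor and close relative of the GM-CSF receptor β chain, had 37485 and 38222 normalized counts in the controls and 18159.8, 17819.6 and 17395 in *Irf8*-OE, a log2 fold change of -1.09 (standard error 0.05). Since *Csf2rb2* and *Csf2rb* are near-identical, the split of their reads is uncertain. Scaled to equal sums, *Tgfbr1* and *Csf2rb2* had log2 fold changes of -0.39 and -0.43, and after quantile normalization of -0.61 and 0, and were called in neither case. A value of 0 is what quantile normalization gives any gene of equal rank in all samples, whatever its change.

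Around *Tlr11*, 7 of 36 genes of Toll-like receptor signaling are in the table, *Tlr11* itself among them. All 7 were called higher, as were 58.1% of all listed genes. Their median log2 fold change was 1.35, below the median of 1.83 over all genes called higher. *Tlr5*, the flagellin receptor, had 23.6 and 11.5 normalized counts in the controls and 43.1, 49.5 and 39.2 in *Irf8*-OE. The 2 controls were far apart, and the log2 fold change of 1.35 (standard error 0.34) became 0.86 without the second control and 0.73 after quantile normalization, both below the threshold. *Irf7*, an interferon regulatory factor acting downstream of endosomal receptors, had a log2 fold change of 1.87 (standard error 0.13), from 97.8 and 118 to 427, 392 and 367 normalized counts. *Irf7* and *Irf8* are the 2 genes of 9 in the IRF family that the table holds, both higher.

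The subunits of interleukin 12, the cytokine made after TLR11 is engaged, were both called higher, as were 58.1% of all listed genes. *Il12b*, the p40 subunit, had 124 and 127 normalized counts in the controls and 258, 307 and 335 in *Irf8*-OE. Its log2 fold change was 1.25, and 0.95 with TMM scaling, below the threshold. *Il12a*, the p35 subunit, had 0 reads in both controls and 20.1, 19.6 and 30.1 normalized counts in the other group. Against a floor of 3 reads per control, *Irf8*-OE was at least 7.45-fold higher. *Lbp*, which passes lipopolysaccharide on to its receptor, and *Ly86*, which encodes MD-1, had log2 fold changes of 1.12 and 1.06. Without the first control these were 0.86 and 0.90, and after quantile normalization 0.77 and 0.71, below the threshold. TLR11 acts together with TLR12, and endosomal receptors need UNC93B1. *Tlr12*, *Unc93b1* and *Myd88* are not in the table and were not analysed here.

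Around *Cd24a*, 1 of 7 genes for binding partners and signaling is in the table. *Selp*, which encodes P-selectin, an adhesion molecule that binds CD24, had 33.7 and 45.1 normalized counts in the controls and 259, 209 and 209 in *Irf8*-OE, a rise of 2.49 on the log2 scale (standard error 0.18, adjusted p of 1.48e-05 in limma). It was thus higher where *Cd24a* was lower.

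**Figure D4:**
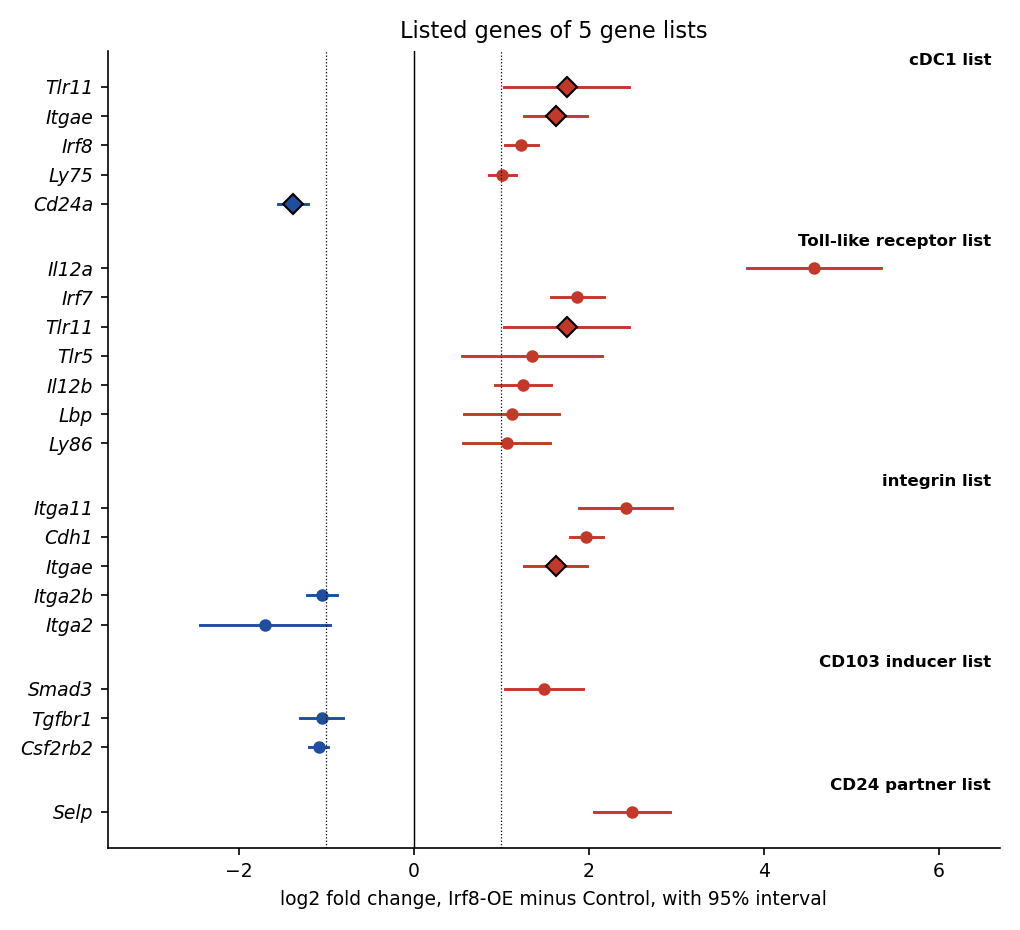
Log2 fold changes, *Irf8*-OE minus control, with 95% intervals from limma (horizontal axis), for the listed genes of the cDC1, Toll-like receptor, integrin, CD103 inducer and CD24 partner lists. Diamonds mark *Itgae*, *Tlr11* and *Cd24a*, red is higher and blue lower in *Irf8*-OE, and dotted lines mark 1 and -1. The value of *Il12a*, at 0 reads in both controls, depends on the pseudocount and is no bound. All genes of the Toll-like receptor list lie above 0, whereas the cDC1 and integrin lists lie on both sides.

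In bulk samples, fewer cells of a type and less RNA per cell cannot be told apart, and markers of other cells moved between the same groups. Of 18 mast cell and basophil genes, 13 are in the table, 11 lower and 2 higher, beside 41.0% lower and 58.1% higher among all listed genes. Their summed level was 259044 to 263439 normalized counts in the controls, against 40038 to 44481 in *Irf8*-OE. *Cpa3*, *Tpsb2* and *Il1rl1*, the 3 most abundant, had log2 fold changes of -3.00, -2.58 and -2.71. The 2 higher genes were *Mcpt8* and *Prss34*, proteases of basophils, chosen after their values were seen. The part of mast cells in the fall of *Cd24a* was not tested.

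Other cells that carry CD24 gave mixed values, to be read against the same 58.1% higher and 41.0% lower. Of 15 neutrophil genes 6 are in the table, 4 higher and 2 lower, with summed levels of 996 to 1065 in the controls, against 2244 to 2349 in *Irf8*-OE. The sum hides opposite changes. *Mpo*, among the 4 higher, had means of 10.8 in the controls and 996 in *Irf8*-OE. The 2 lower genes, *Ly6g* and *Mmp9*, fell from means of 164 and 379 to 9.68 and 97.6. Of 9 eosinophil genes 6 are in the table, 2 higher and 4 lower, with sums of 1087 to 1204 and of 445 to 483. *Epx*, among the 2 higher, had 0 reads in both controls and a mean of 91.2 normalized counts in *Irf8*-OE. *Siglecf*, among the 4 lower, had means of 622 and 181. Of 17 B lineage genes 5 are in the table, all higher, with sums of 209 to 247 and of 2267 to 2608. Most of both sums is *Ighm*, with means of 189 and 2017. The 1 listed gene of 12 red cell genes, *Hbb-bt*, was lower, from 191 and 225 to 47.0, 57.9 and 49.2 normalized counts. The part of any of these cells in the fall of *Cd24a* was not tested.

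For *Itgae*, T cells are the other common source of CD103. Of 16 T cell, NK cell and innate lymphoid genes 4 are in the table, 3 higher and 1 lower, beside 58.1% and 41.0% of all listed genes. *Cd3e* had 0 reads in both controls and 2, 6 and 13 in *Irf8*-OE, *Trbc1* 0 reads in both controls and 2, 14 and 7, and *Trbc2* 0 and 2 reads against 13, 12 and 11. These 3 T cell receptor genes were thus higher with at most 14 reads in any sample, where *Itgae* had 154 to 177 in *Irf8*-OE, and the part of T cells in its rise was not tested. None of the 3 was called after quantile normalization or with a pseudocount of 10. *Gzmb*, the granzyme B gene, was lower, from 1137 and 1241 to 345, 401 and 379 normalized counts. It was thus highest in the controls, where *Cd3e* and *Trbc1* had 0 reads, and which cells carried it was not tested.

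Of 18 macrophage and monocyte genes 8 are in the table, all 8 higher, as were 58.1% of all listed genes, with summed levels of 5940 to 5989 in the controls, against 26871 to 31928 in *Irf8*-OE. *C1qa*, *C1qb* and *C1qc*, which encode complement C1q, had log2 fold changes of 3.72, 2.19 and 2.46. The part of macrophages in the rise of *Itgae* and *Tlr11* was not tested.

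Of the other dendritic cell lists, 7 of 17 cDC2 genes are in the table, 6 higher and 1 lower. Of 10 plasmacytoid genes 2 are in the table and of 14 maturation genes 3, all of them higher. The lower cDC2 gene, *Cd209a*, had a log2 fold change of -3.03. The cDC2 genes *Mgl2*, *Ltb* and *Cx3cr1* had log2 fold changes of 1.12, 1.99 and 1.78, and *Mgl2* was not called with TMM scaling (0.81). *Fscn1*, the actin-bundling protein of mature dendritic cells, had 1.61, and *Cd40* 1.07, the latter 0.97 without the first *Irf8*-OE sample and 0.77 with TMM scaling. Among all listed genes 58.1% were higher, and the shares of the lists were not compared with it by a test. Of 18 stromal genes 11 are in the table, 10 higher and 1 lower, beside the same 58.1% and 41.0%, with sums of 5048 to 5273 in the controls, against 15878 to 17362 in *Irf8*-OE.

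**Figure D5:**
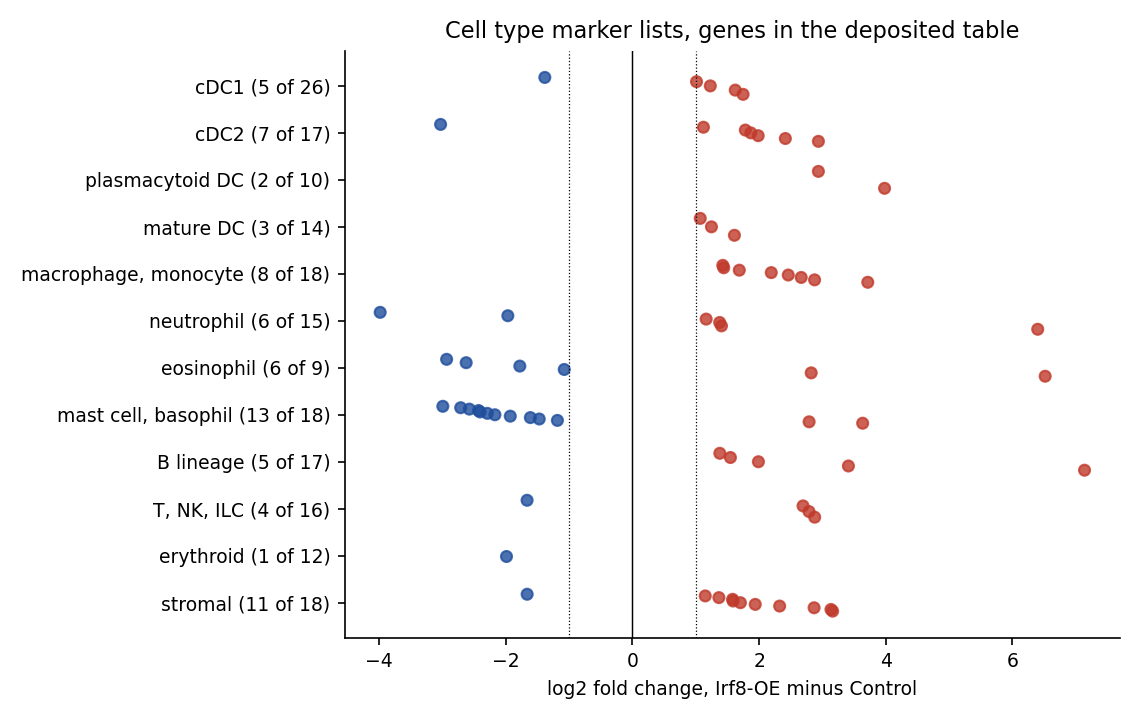
Log2 fold changes, *Irf8*-OE minus control (horizontal axis), of the genes of each cell type list that are in the table, with their number of all genes of the list. Each point is a gene, red is higher and blue lower in *Irf8*-OE, and dotted lines mark 1 and -1. The macrophage and B lineage genes lie above 0, and 11 of the 13 mast cell and basophil genes lie below.

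The genes most like each of the 3 were taken by the root mean square distance of log2 profiles, centred on their mean over the 5 samples, among 1248 other genes with a mean of at least 10 normalized counts. For *Itgae* they were *Pitx1*, *Trpc6* and *Ebf1*, at distances of 0.05, 0.06 and 0.08. For *Tlr11* they were *Prr5*, *Ifi27l2a* and *Cyr61*, at 0.08, 0.08 and 0.12. In the controls *Tlr11* rests on 5 and 6 reads and *Pitx1* on 8 and 11, so counting error leaves their nearest genes uncertain. For *Cd24a* they were *Rap1gap2*, *Adora3* and *Rnf128*, each at 0.04 or 0.05. *Rnf128* had 7120.2 normalized counts on average in the controls and 2761 in *Irf8*-OE, a log2 fold change of -1.37. It was below the threshold after quantile normalization (-0.94) and with equal sums (-0.71), and *Rap1gap2* and *Adora3* were so with equal sums (-0.67 and -0.70). *Pitx1* (0.74) and *Ebf1* (0.96) were below it after quantile normalization.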

How the data were processed

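RNA-seq of BMDCs covered 3 *Irf8*-OE and 2 control samples, grouped by the sample titles. The submitters' processing notes name fastp, HISAT2 2.0.5, featureCounts 1.5.0-p3, DESeq2 1.20.0, edgeR 3.22.5 and the build mm10, without roles. The authors deposited a signal per gene and sample, normalized counts, for genes past their thresholds (FDR-adjusted p-value under 0.05, absolute log2 fold change above 1). Genes they did not list are not analysed here. The deposited table also holds the authors' group means, fold changes and p-values, which were not used.

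In every sample 100% of values were whole multiples of 1 step (0.934 to 1.12 normalized counts per read, tolerance 0.01 reads), which gave back the reads. In the third *Irf8*-OE sample the step, 1.004, is too near 1 for an automated check, so tests on reads are alternatives, also run without that sample (chosen after seeing the data). A floor of 3 reads was used for fold bounds. Of the 1355 genes, 1354 are in GENCODE vM21 and 1313 have the same start and end there.

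The values, as log2(normalized counts + 1), were fitted in R 4.3.3 by limma 3.58.1 with its moderated variances following a trend, a scale that understates changes of low genes, and p-values were adjusted by Benjamini-Hochberg over the table. Ratios within samples used the exact permutation test of scipy 1.17.1. Scripts were tested on simulated data. Alternatives were quantile normalization, equal sums, DESeq2 1.42.0 and edgeR 4.0.16 on recovered reads, other pseudocounts, a filter at 10, no trend, replicate blocks and leaving out each sample. Quantile normalization, equal sums and TMM, a scaling of edgeR, were computed from the listed genes only. These were selected for change and 99.1% were called, so such scaling has no unchanged majority to rest on. A call lost under it cannot tell a weak change from an effect of the scaling.

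The 3 genes and the gene lists were chosen with earlier results of these data known. Genes were named by rule: the 3 genes, every listed gene of the cDC1, Toll-like receptor, integrin, CD103 inducer, CD24 partner and IRF lists, up to 3 most abundant genes of each other list, the 3 genes nearest in profile to each of the 3, and sex-linked genes. Genes named outside it were chosen after their values were seen.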

Additional observations from a re-analysis of the deposited data

How the results depend on the processing

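*Itgae* stayed called under all 18 alternatives, with log2 fold changes from 1.33 to 2.27. The alternatives are not independent, since the replicate blocks repeat the estimates of fits that leave out a sample. *Tlr11* stayed called under 17 of 18, the exception being quantile normalization (0.51, adjusted p = 0.142 from limma), and lay between 0.51 and 2.33. *Cd24a* stayed called under 16 of 18 and lay between -1.70 and -0.73. The exceptions were quantile normalization (-0.80) and equal sums over the listed genes (-0.73), both below the fold threshold with adjusted p-values from limma of 7.74e-06 and 3.08e-05. By construction, quantile normalization gives the most abundant listed gene, *Cpa3*, the same value in all samples, and equal sums raise every *Irf8*-OE value, since the controls hold more counts on the listed genes. The causes were otherwise not tested.

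With each sample left out, the log2 fold changes ranged from 1.55 to 1.70 for *Itgae*, from 1.59 to 1.90 for *Tlr11* and from -1.44 to -1.33 for *Cd24a*. The differences in log2 ratio ranged from 2.94 to 3.11 for *Itgae* to *Cd24a*, from 2.92 to 3.32 for *Tlr11* to *Cd24a* and from -0.35 to 0.02 for *Itgae* to *Tlr11*. In that order they were 2.86, 2.39 and 0.47 with a pseudocount of 10, and 2.14, 1.31 and 0.83 after quantile normalization.

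Quantile normalization called 499 genes of the table higher, and equal sums called 276 lower. In the cDC1 list both called 0 genes lower, and TMM scaling called 2 higher, when *Irf8* (0.92) and *Ly75* (0.70) fell below the fold threshold. Of the 94 other named genes 62 kept their call under all alternatives and 0 changed direction.

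The replicate numbers of the titles and of the descriptions disagree for the controls. Samples sharing a number did not deviate together (correlations of 0.027 and 0.027 by title, -0.027 and 0.002 by description, over 1249 genes). With 2 controls, whose deviations from their mean mirror each other, these values cannot exclude a pairing. With a replicate block by title the log2 fold changes of *Itgae*, *Tlr11* and *Cd24a* were 1.55, 1.90 and -1.42, and by description 1.61, 1.59 and -1.33, all called. In a blocked fit, an *Irf8*-OE sample whose number no control shares adds nothing to the difference. These estimates therefore equal those without the third *Irf8*-OE sample by title, and without the first by description. They are no separate check. The block called 774 and 545 or 755 and 516 genes higher and lower.

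Depth limits *Tlr11*, with 5 and 6 reads in the controls.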
